A study of Mus musculus with 8 samples.

Results

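The genes described here are 44 nuclear genes whose products keep, read and translate the mitochondrial genome or set how many mitochondria a cell builds. They were taken by name from a list: 4 factors of mitochondrial DNA (mtDNA) replication and maintenance, 6 of mitochondrial transcription, 2 MTERF proteins of mitochondrial ribosome assembly, 2 factors that stabilise mitochondrial mRNA, 2 of translation initiation, 3 of elongation, 4 of termination and recycling, 16 aminoacyl-tRNA synthetases of the mitochondrion, 3 nuclear transcription factors and 2 coactivators of the PGC-1 family. All 44 were found among the 31053 gene identifiers of the count table, and all 44 had a count in at least 1 library. The rule for the list uses names only and no measured value, though the list was chosen with earlier results of these data known.

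The libraries were bulk RNA-seq of brown adipose tissue (BAT), the heat-producing fat of mammals, from C57BL6/J mice that the labels give as 8 weeks old, 4 labelled WT and 4 labelled Cd36KO. CD36 is a fatty acid transporter of the plasma membrane. The study worked with germline Cd36 knockout mice and with mice carrying floxed Cd36 and a Csf1r-driven Cre, which deletes the gene in macrophages and other myeloid cells, and it ties the tissue transcriptome to the latter, while the labels say only Cd36KO. For that line the study's legend to the transcriptome gives the same age as the labels and its methods a later one. Whether the WT mice carried the floxed allele or the Cre is not given in the sources used here. One Cd36KO library carries no replicate number and is called the unnumbered Cd36KO library.

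Each library held 2679785 to 4097953 counts, and 23.4 to 32.1% of them fell on the mitochondrial genome. Cd36 read 2412 to 3505 normalized counts in WT and 1926 to 2384 in Cd36KO (log2 fold change −0.48, SE 0.16, DESeq2 adjusted p = 0.0602), so the groups did not overlap but the transcript stayed abundant. Which part of Cd36 was removed and where its reads lie is not given in the sources used here, so this count cannot check the deletion. The labels name a stromal vascular fraction, the non-adipocyte cells of fat, yet genes of mature adipocytes were high in every library (Ucp1 4235 to 12310 and Adipoq 2458 to 6294 normalized counts), as in whole BAT. The study's methods speak of males, while Xist, the RNA of the inactive X, read 821 to 1433 normalized counts in all 8 libraries and the Y-linked Uty, Kdm5d and Eif2s3y had none, while Ddx3y read 2.71 in WT replicate 1 and 0 in the others. The summed level of 18 skeletal muscle genes ran from 1175 to 65990 normalized counts in WT, with the highest in WT replicate 1, and from 517 to 10450 in Cd36KO. The mean level of 13 brown adipocyte genes, as log2(normalized count + 1), was 9.79 to 10.1 in WT and 10.2 to 10.5 in Cd36KO, and that of 8 detected white fat genes was 4.86 to 7.1 in WT and 4.15 to 4.8 in Cd36KO. As summed normalized counts both lists overlapped between groups, the brown adipocyte genes at 42760 to 66240 in WT and 56880 to 63340 in Cd36KO and the white fat genes at 735 to 5230 and 677 to 1061. Of the 12 brown adipocyte genes with a mean of at least 10 normalized counts, 8 had a log2 fold change above 0 and 4 below, among them Fabp4 at −0.73. In bulk tissue, fewer cells of a type and less RNA per cell cannot be told apart.

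Mitochondria carry a small circular genome that encodes a few subunits of the respiratory chain, together with the rRNAs and tRNAs needed to make them. Every protein that copies, transcribes or translates this genome is encoded in the nucleus and imported. Brown adipocytes are packed with mitochondria, and the PGC-1 coactivators, working through NRF1, GABPA (also called NRF2-alpha) and the estrogen-related receptor ESRRA, are the textbook regulators of their number.

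Of the 44 genes, 1 rose in Cd36KO, the mitochondrial valyl-tRNA synthetase gene Vars2, and none fell. The call is by DESeq2's Wald test at an adjusted p under 0.05, adjusted over all 9619 genes that received an adjusted p. 41 of the members received one, so that 2.44% of them were called higher, against 1.42% of all genes called higher and 1.53% called lower (2.95% in all). A share this near the background is not a result about the list. Before adjustment, 5 members lay under 0.05 on the higher side (Vars2, Fars2, Twnk, Tufm and Polrmt) and 0 on the lower side, which is 12.2% of the 41 against 7.69% of all genes with an adjusted p on the higher side and 7.88% on the lower. edgeR's quasi-likelihood test called 0 members, with the same number, 5, under 0.05 before adjustment on the higher side and 0 on the lower (all genes 7.23% and 8.9%), and it called 0.143% of all genes.

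The members' fold changes sat slightly above those of other genes. Among the 41 members with a mean of at least 10 normalized counts (the count divided by the library's size factor), the median log2 fold change of Cd36KO over WT was 0.13, with 27 above 0 and 14 below, while over all 9834 genes with that mean it was −0.01, with 4821 above 0 and 5013 below. With the brown adipocyte score (the mean log2 level given above, which did not overlap between groups) as a covariate, the members' median was 0.0284. The values ran from −0.38 for Ssbp1 to 0.85 for Sars2. Neither end passed the test (adjusted p = 0.543 and 0.514 by DESeq2). These data bound large falls more tightly than large rises: the 95% interval lay above a 2-fold fall for 39 of the 41 members and below a 2-fold rise for 28. For 26 it lay inside 2-fold both ways, but for only 4 inside 1.5-fold. The 3 lowest genes, Polg2, Tefm and Mtrf1, had means under 10 and no adjusted p, and 20 more had means from 10 to 50, where few counts limit the precision.

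**Figure D1:**
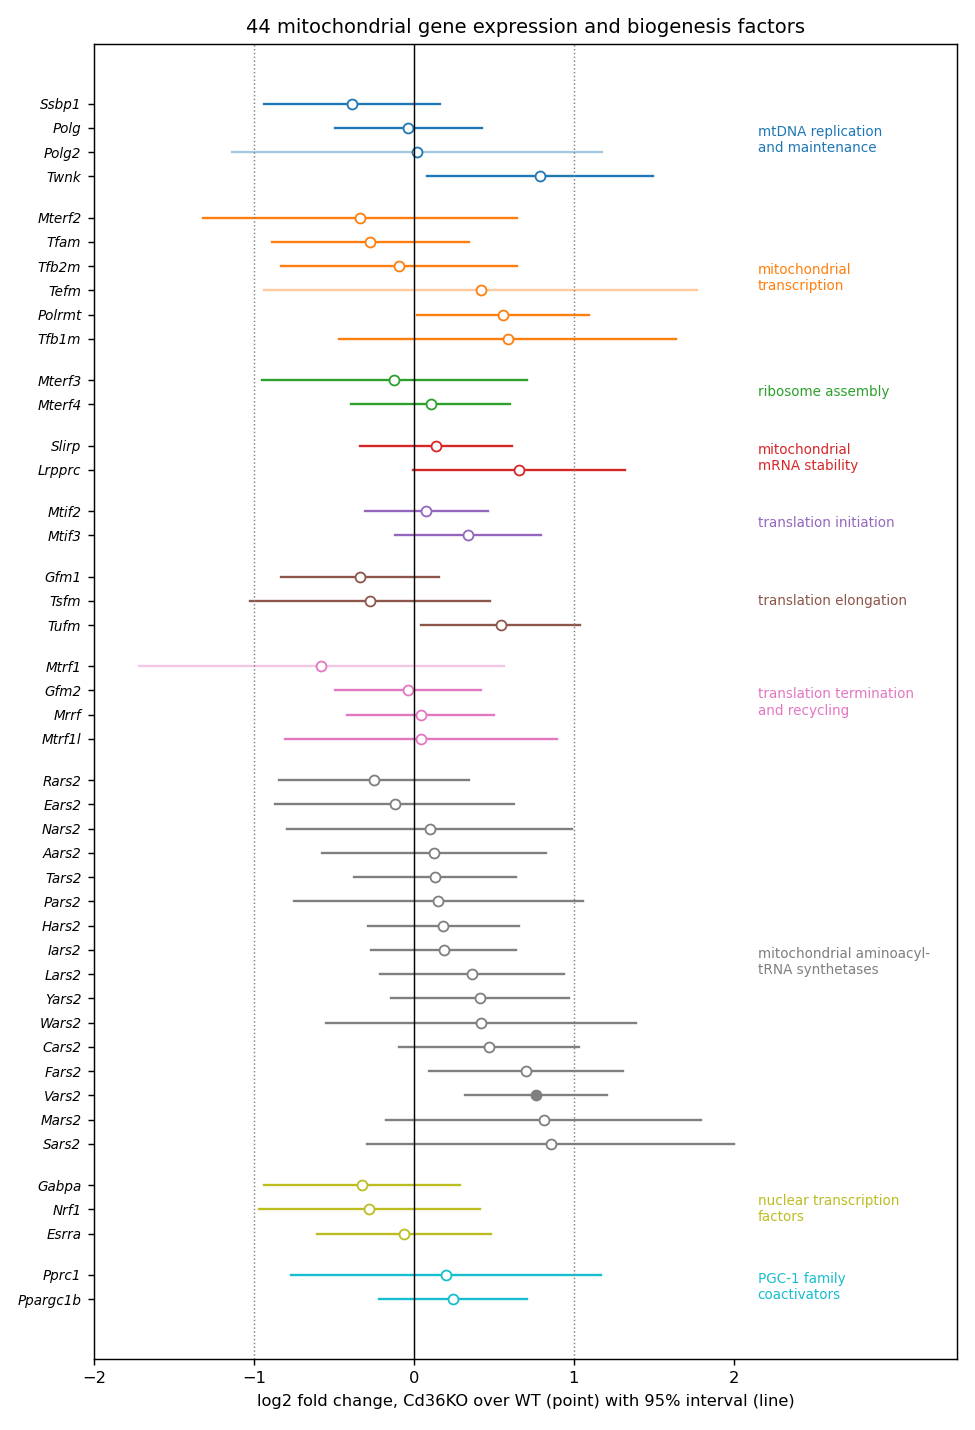
Log2 fold change of Cd36KO over WT for each of the 44 genes, ordered by role, with its 95% interval from DESeq2; the filled point is the 1 gene with an adjusted p under 0.05, pale lines are the 3 genes with means under 10, and dotted lines mark a 2-fold change. Most intervals cross 0, and 27 of the 41 better-measured genes lie to the right of it.

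Vars2 charges the mitochondrial tRNA for valine. Its normalized counts were 59.6, 75.6, 84.7 and 76.2 in WT replicates 1 to 4 and 147, 93.2, 134 and 127 in the unnumbered Cd36KO library and Cd36KO replicates 2, 3 and 4. Every Cd36KO library lay above every WT library, and Cd36KO replicate 2 came closest to WT. The means were 74.0 ± 10.5 (SD, n = 4) and 125 ± 23.0 (SD, n = 4), a log2 fold change of 0.77 (SE 0.23, DESeq2 adjusted p = 0.0337), or 1.70-fold with a 95% interval of 1.25 to 2.31. The exact two-sided permutation test gave p = 0.0286, the smallest that 4 against 4 libraries allow. edgeR's adjusted p was 0.119, and over 19 alternative fits the adjusted p ran from 0.0151 to 1.0, the latter with the brown adipocyte score as a covariate (log2 fold change 0.66). The DESeq2 call was lost when WT replicate 1, 2 or 3 (adjusted p = 0.112, 0.158 and 0.0761), the unnumbered Cd36KO library (0.21) or Cd36KO replicate 3 or 4 (0.127 and 0.146) was left out. Vars2 was the 1 member of 41 whose groups did not overlap with Cd36KO above, while 4.74% of all genes at that mean did so, and 0 members lay wholly below WT, against 3.91% of all genes. The gene lies at chr17:35655634-35667592 on the minus strand (GRCm38) and shares ground with Gm20483 on the other strand, from which its reads cannot be told apart without strand information.

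The promoter of Vars2 is shown because it carries the core of the NRF1 recognition motif, the palindrome CGCATGCG, in 2 copies. In the RefSeq promoter windows of GRCm38.p6, from 250 bases before to 50 after each start site, 39 of the 44 members had an entry, with 43 windows among them. The core stood in 4 of these 43 windows (9.3%), those of Vars2, Wars2, Gabpa and Tfb2m, and in 1.87% of all 32851 windows or 2.52% of those of protein-coding genes. The stretches below are the 120 bases before the start of the 3 genes with the core upstream, on the gene's own strand with motif matches in capitals; in Gabpa, which encodes the DNA-binding subunit of the GABP complex, the first capitals are a match to the ETS motif on the opposite strand. Vars2 lies at chr17:35667593-35667712 (minus), Wars2, the tryptophanyl enzyme, at chr3:99140970-99141089 (plus) and Gabpa at chr16:84835004-84835123 (plus).
Vars2: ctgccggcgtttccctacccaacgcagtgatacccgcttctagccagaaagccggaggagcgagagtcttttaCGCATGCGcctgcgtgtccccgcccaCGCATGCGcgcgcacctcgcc
Wars2: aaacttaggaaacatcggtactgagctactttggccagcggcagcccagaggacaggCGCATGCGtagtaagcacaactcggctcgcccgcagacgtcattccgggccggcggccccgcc
Gabpa: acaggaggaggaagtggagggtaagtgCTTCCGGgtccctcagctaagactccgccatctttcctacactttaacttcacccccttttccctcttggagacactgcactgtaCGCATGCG
Of these, Vars2 passed the test, while Wars2 (0.42, SE 0.49) and Gabpa (−0.32, SE 0.31), both log2 fold changes, lay on opposite sides of 0. A match is a description of the sequence and no measure of binding.

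The other 15 mitochondrial synthetases did not pass the test, but most lay on the same side. Of all 16, 14 had a log2 fold change above 0 and 2 below (Rars2 −0.25 and Ears2 −0.12), with a median of 0.28. Their summed normalized counts were 815, 904, 952 and 1115 in WT and 1485, 978, 1150 and 1189 in Cd36KO, and the groups overlapped, since Cd36KO replicate 2 lay under WT replicate 4. Fars2, the phenylalanyl enzyme, is described because its p came next after that of Vars2, a choice made after its values were seen. It read 64.99, 100, 116 and 161 in WT and 259, 115, 143 and 203 in Cd36KO, with overlapping groups and a log2 fold change of 0.70 (SE 0.31, DESeq2 adjusted p = 0.22). Without WT replicate 4 it was 0.94 (DESeq2 adjusted p = 0.0342) and with the white fat score as a covariate 1.74 (DESeq2 adjusted p = 0.00262). The white fat score is the mean log2 level given above, which did not overlap between groups. Larger estimates belonged to the sparse genes Sars2 (0.85, SE 0.59) and Mars2 (0.81, SE 0.50), with means of 10.5 and 9.36 normalized counts in WT. Iars2, with 305 ± 83.9 in WT and 347 ± 72.3 in Cd36KO (SD, n = 4), was 0.19 (SE 0.23), and 0.93 with the white fat score (adjusted p = 0.0408 by DESeq2).

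Most mitochondrial synthetases have a partner in the cytosol for the same amino acid, so each pair compares the mitochondrial with the cytosolic arm in the same library. The log2 ratio of mitochondrial to cytosolic enzyme was on average higher in Cd36KO for 14 of 16 pairs and lower for 2, and the median difference was 0.26. For 3 pairs every Cd36KO ratio lay above every WT ratio: Lars2 over Lars, which went from −1.26 ± 0.44 to −0.20 ± 0.53, Vars2 over Vars, from 0.69 ± 0.25 to 1.74 ± 0.42, and Cars2 over Cars, from 0.62 ± 0.12 to 1.45 ± 0.43 (SD, n = 4). How often other gene pairs separate in this way was not counted. For each of the 3, full separation fixes the exact permutation p at 0.0286, the smallest possible. After Benjamini-Hochberg adjustment over the 16 pairs it was 0.153, so none passed. In all 3 the cytosolic partner had the lower estimate (Lars −0.64, Vars −0.28, Cars −0.43), and none of these partners passed the test by itself (adjusted p = 0.148, 0.721 and 0.538 by DESeq2). A list of 24 genes held the cytosolic and dual-site synthetases together with Aimp1, Aimp2 and Eef1e1, auxiliary proteins of their complex that charge no tRNA. DESeq2 called 0 of the 23 with an adjusted p and edgeR 0 of 24, with 2 higher and 2 lower under 0.05 before adjustment in each. Among the 23 with a mean of at least 10, Aimp1 and Aimp2 included, 10 lay above 0 and 13 below, with a median log2 fold change of −0.02.

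**Figure D2:**
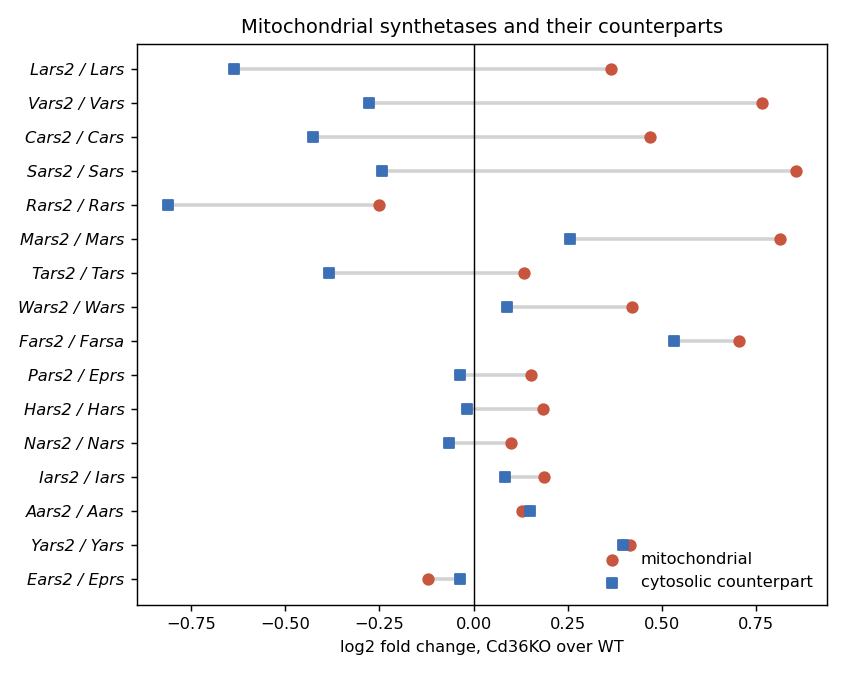
Log2 fold change of Cd36KO over WT for each mitochondrial synthetase (circle) and its cytosolic counterpart (square), joined by a line and ordered by the difference of their log2 ratio; Eprs stands for both Ears2 and Pars2. In 14 of 16 pairs the library-wise ratio was higher in Cd36KO, and the 3 pairs without overlap are those of Lars2, Vars2 and Cars2.

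The factors that act on mtDNA showed no shared direction. Twnk, the helicase that opens mtDNA for replication, read 16.3, 26.3, 18.8 and 29.7 normalized counts in WT and 54.6, 39.1, 25.6 and 38.9 in Cd36KO. In all, 3 of the Cd36KO libraries lay above all WT libraries and Cd36KO replicate 3 lay among them, with a log2 fold change of 0.79 (SE 0.36, DESeq2 adjusted p = 0.244), and it too is named after its values were seen. Twnk overlaps Mrpl43, a mitochondrial ribosomal protein gene, on the other strand. Polg, the catalytic subunit of the mtDNA polymerase, had one of the tightest estimates of the list, 79.4 ± 13.5 in WT and 77.3 ± 10.7 in Cd36KO (SD, n = 4), a fold of 0.977 with a 95% interval of 0.711 to 1.34. Ssbp1, which coats single-stranded mtDNA, read 42.4 to 54.4 in WT and 30.1 to 45.8 in Cd36KO (log2 fold change −0.38, SE 0.28). Polg2, the accessory subunit, read 3.53 to 11.9 over the 8 libraries, too few for a comparison.

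Among the transcription factors of the organelle, TFAM packages mtDNA and bends its promoters, and POLRMT is the RNA polymerase. Tfam read 99.3, 75.6, 47.1 and 43.5 normalized counts in WT and 54.6, 69.0, 45.0 and 52.6 in Cd36KO. The WT libraries alone spanned more than the range of the Cd36KO libraries, and the log2 fold change was −0.27 (SE 0.31, DESeq2 adjusted p = 0.753, exact permutation p = 0.6). Without WT replicate 1, the highest library, it was −0.01, without WT replicate 4, the lowest, −0.43, and with the white fat score as a covariate −0.95 (adjusted p = 0.213). Polrmt read 79.4, 49.3, 47.1 and 63.3 in WT and 106, 58.7, 93.1 and 94.6 in Cd36KO. Its groups overlapped through Cd36KO replicate 2, which lay among the WT libraries, and the log2 fold change was 0.56 (SE 0.27, adjusted p = 0.294 by DESeq2). It was 0.90 with the muscle score, 0.18 with the white fat score and 0.21 with the brown adipocyte score as a covariate. Tfb2m, which melts the promoter, was −0.09 (SE 0.38), Tfb1m, a methyltransferase of the small-subunit rRNA, 0.59 (SE 0.54) on means of 8.77 and 13.3, and Mterf2 −0.34 (SE 0.50). The elongation factor gene Tefm read 2.23 to 11.5 over the 8 libraries. The 6 genes summed to 148 to 247 normalized counts in WT and 206 to 219 in Cd36KO, so that the spread was the wider in WT.

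The start regions of these genes are shown for the ETS motif CCGGAAG, which the GABP complex binds, searched on both strands. It stood in 17 of the 43 member windows (39.5%), against 8.86% of all windows and 11.6% of those of protein-coding genes, and no match overlapped a match to the other motifs. The ERR motif TCAAGGTCA stood in 1 member window, that of Mtrf1l, and in 0.423% of all windows. Capitals mark the ETS motif or its reverse complement CTTCCGG in the 120 bases before the start of Tfam (chr10:71238045-71238164, minus), Polrmt (chr10:79746582-79746701, minus) and Twnk (chr19:45006438-45006557, plus, 1 of its 2 windows).
Tfam: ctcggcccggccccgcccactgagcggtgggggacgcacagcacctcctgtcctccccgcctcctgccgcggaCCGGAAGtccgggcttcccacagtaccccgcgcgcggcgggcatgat
Polrmt: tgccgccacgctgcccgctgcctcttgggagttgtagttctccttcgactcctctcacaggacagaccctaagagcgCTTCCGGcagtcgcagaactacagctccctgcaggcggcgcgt
Twnk: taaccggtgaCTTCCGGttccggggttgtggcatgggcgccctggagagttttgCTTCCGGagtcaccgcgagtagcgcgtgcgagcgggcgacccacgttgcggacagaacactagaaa
Tfam has 1 match, Polrmt 1 and Twnk 2, and their log2 fold changes differed in sign (−0.27, 0.56 and 0.79), with none past the test.

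The largest count, which is not a level per length, and the widest spread in WT belonged to Lrpprc, whose product binds SLIRP and protects mitochondrial mRNA from decay. It read 335, 832, 949 and 1601 normalized counts in WT and 1901, 1082, 1437 and 1446 in Cd36KO. The WT libraries differed among themselves by 4.78-fold, the most of any member, with WT replicate 1 lowest and WT replicate 4 above 3 of the 4 Cd36KO libraries. The log2 fold change was 0.66 (SE 0.34, DESeq2 adjusted p = 0.329, exact permutation p = 0.114). Without WT replicate 4 it was 1.06 with a DESeq2 adjusted p of 0.0122. With the white fat score as a covariate it was 2.34, with a DESeq2 adjusted p of 4.79e-08. The highest adjusted p over 19 alternatives was 1.0, so the Lrpprc value turned on single libraries and on the fat score used. The white fat score did not overlap between groups, and only WT replicate 1 (4.86) lay near Cd36KO (4.15 to 4.8). The other WT libraries read 6.74 to 7.1, so that fit cannot tell fat type, genotype and WT replicate 1 apart. Without WT replicate 1 the log2 fold change was 0.38, and with the brown adipocyte score it was 0.03. WT replicate 1, the low library, also had the highest muscle level and, with 23.4%, the lowest share of counts on the mitochondrial genome, and with the muscle score as a covariate the log2 fold change was 0.65. The part of the mitochondrial share in the Lrpprc value was not tested. Slirp, the partner, read 145, 175, 125 and 267 in WT and 172, 207, 189 and 215 in Cd36KO, a log2 fold change of 0.14 (SE 0.24). In Slirp WT replicate 4 was the highest of all 8 libraries, while in Lrpprc it was the highest of the WT libraries only.

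Because of its count, Lrpprc set much of any total over the list. It took 9.05 to 33.6% of the members' counts in a library, and Ppargc1b another 11.1 to 27.2%. All 44 together came to 1354, 1314, 1216 and 1413 CPM (counts scaled to a common library total) in WT and 1668, 1479, 1630 and 1554 in Cd36KO, with no overlap and a ratio of the means of 1.2. As summed normalized counts the same 44 were 3702, 3838, 3884 and 4827 in WT and 5655, 4560, 5155 and 4857 in Cd36KO, and WT replicate 4 lay above Cd36KO replicate 2. Without Lrpprc the totals were 1232, 1030, 919 and 944 against 1108, 1128, 1175 and 1091 CPM, a ratio of 1.09, and WT replicate 1 lay above every Cd36KO library. On normalized counts these 43 genes did not overlap (2935 to 3367 in WT and 3411 to 3755 in Cd36KO, ratio 1.15), but without Ppargc1b as well they overlapped on both scales. Totals over the list thus depended on 2 genes and on the scale.

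**Figure D3:**
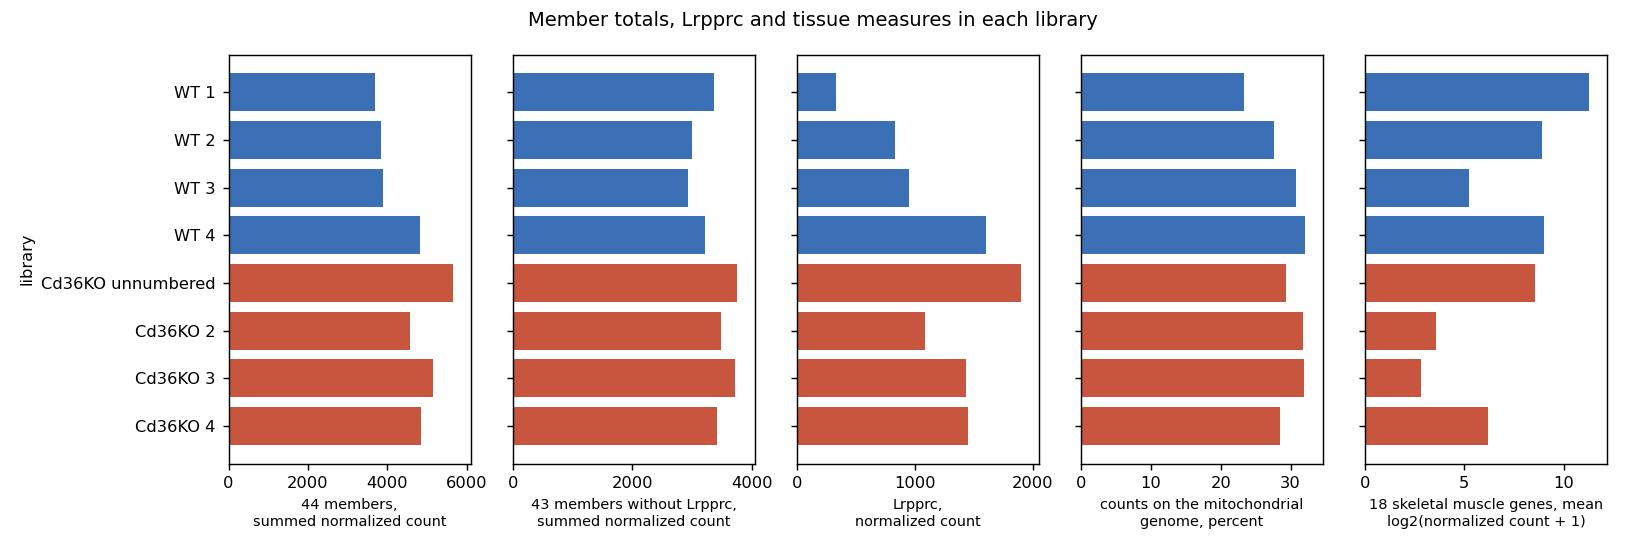
Bars from 0 give, for each library, the summed normalized count of the 44 members and of the 43 without Lrpprc, the normalized count of Lrpprc, the percent of counts on the mitochondrial genome and the mean log2 level of 18 skeletal muscle genes (blue, WT; red, Cd36KO). Lrpprc is lowest in WT replicate 1, at 335, the library with the highest muscle level and the lowest mitochondrial share.

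In translation, the elongation factor gene Tufm, whose product EF-Tu brings charged tRNA to the mitochondrial ribosome, came nearest to a call. It read 52.4, 58.6, 62.3 and 94.96 normalized counts in WT and 109, 102, 79.8 and 99.2 in Cd36KO. Only WT replicate 4 reached the Cd36KO range, where it exceeded Cd36KO replicate 3. The log2 fold change was 0.54 (SE 0.25, DESeq2 adjusted p = 0.256, exact permutation p = 0.0571), and without WT replicate 4 it was 0.76 with an adjusted p of 0.0343, the lowest of a range up to 1.0 over 19 alternatives. With the brown adipocyte score as a covariate the log2 fold change was 0.15, and with the white fat score 1.03. Its exchange factor Tsfm, which reloads EF-Tu, was −0.27 (SE 0.38), and Gfm1, which moves the ribosome along the mRNA, was −0.34 (SE 0.25), so the 3 elongation genes did not share a direction. The initiation factor genes were 0.08 for Mtif2 (SE 0.20, the tightest estimate of the list, with a 95% interval of 0.81 to 1.38 for the fold) and 0.34 for Mtif3 (SE 0.23).

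Of the termination and recycling genes, the 3 with a mean of at least 10 had estimates near 0. Mrrf, the ribosome recycling factor, averaged 70.03 ± 11.4 in WT against 72.0 ± 7.43 in Cd36KO (SD, n = 4), with a 95% interval of 0.75 to 1.42 for the fold. Gfm2, its partner in splitting the ribosome, was 117 ± 31.3 and 114 ± 6.23, with an interval of 0.712 to 1.34. Mtrf1l, the main release factor, was 0.05 (SE 0.43) on the log2 scale, and the related Mtrf1 read 3.05 to 14.8 over the 8 libraries. The MTERF genes of ribosome assembly likewise had estimates close to 0, Mterf3 at −0.12 (SE 0.42) and Mterf4, which guides an rRNA methyltransferase to the large subunit, at 0.11 (SE 0.25).

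**Figure D4:**
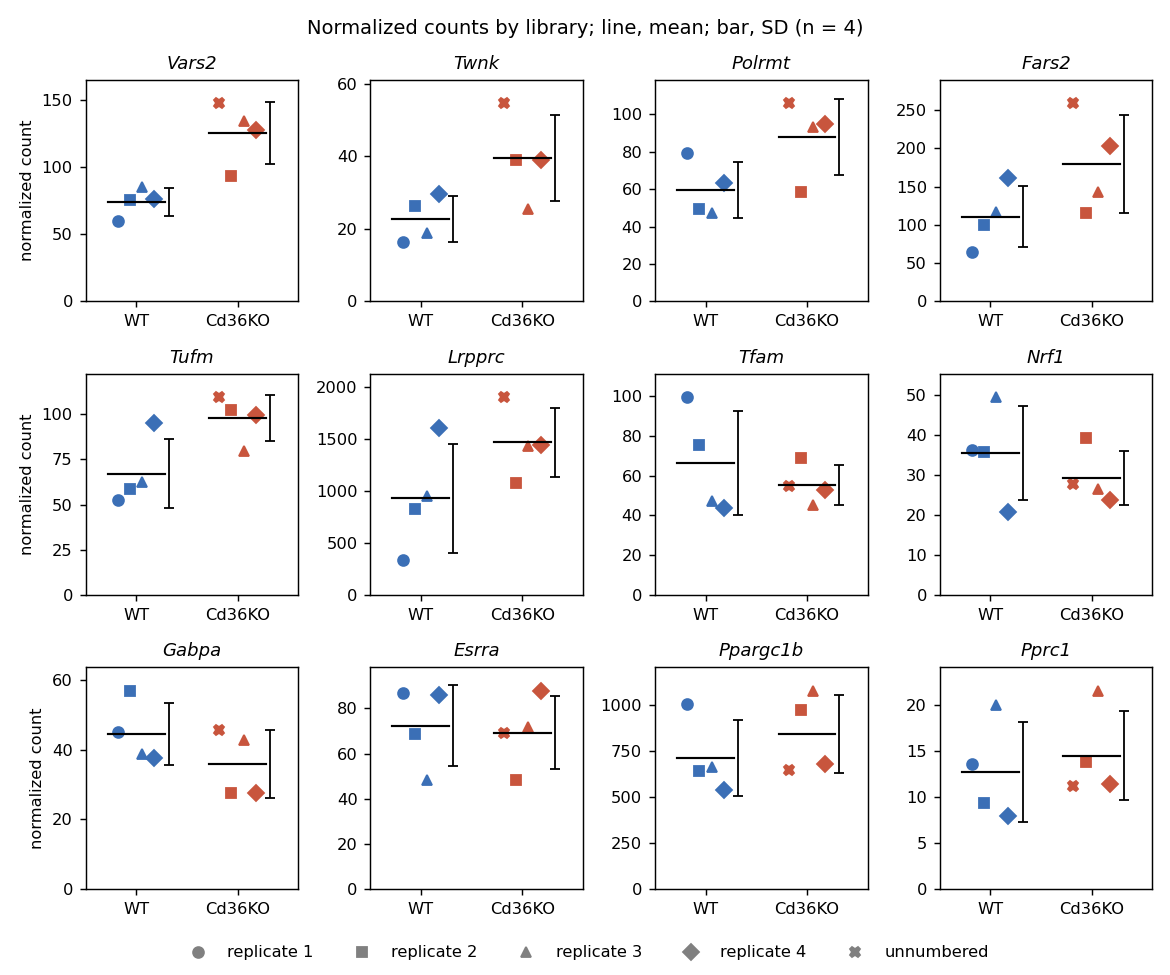
Normalized counts of 12 members in each of the 4 WT (blue) and 4 Cd36KO (red) libraries, with a symbol for each replicate number, the mean as a line and the SD as a bar beside it; axes start at 0. The groups separate for Vars2, and in the other 11 at least 1 Cd36KO library lies within the WT range.

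The nuclear regulators of the list lay on both sides of 0 and none passed the test. Nrf1, for nuclear respiratory factor 1, read 36.1, 35.7, 49.4 and 20.8 normalized counts in WT and 27.9, 39.1, 26.6 and 23.6 in Cd36KO (log2 fold change −0.28, SE 0.35, DESeq2 adjusted p = 0.779). WT replicates 3 and 4 bracketed all Cd36KO libraries, and the log2 fold change was −0.08 without the former, −0.47 without the latter, −0.45 without Cd36KO replicate 2 and −0.18 without Cd36KO replicate 4. Gabpa read 45.1, 56.9, 38.8 and 37.6 in WT and 45.7, 27.6, 42.96 and 27.5 in Cd36KO (−0.32, SE 0.31, adjusted p = 0.685). Cd36KO replicates 2 and 4 lay under all WT libraries and the other two among them. The log2 fold change was −0.18 without WT replicate 2 and −0.20 without Cd36KO replicate 4. Esrra read 86.7, 68.8, 48.2 and 86.1 in WT and 69.1, 48.3, 71.6 and 87.7 in Cd36KO (−0.06, SE 0.28, adjusted p = 0.951), with the ranges nearly the same.

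The coactivators had estimates above 0 whose 95% intervals included 0. Ppargc1b, for PGC-1beta, read 1007, 640, 660 and 536 normalized counts in WT and 647, 971, 1075 and 677 in Cd36KO (log2 fold change 0.24, SE 0.23, DESeq2 adjusted p = 0.684, 95% interval 0.861 to 1.63 for the fold). WT replicate 1 exceeded 3 of the Cd36KO libraries, and without it the log2 fold change was 0.46 (adjusted p = 0.263). With 1 library left out the log2 fold change ran from 0.11, without Cd36KO replicate 3, to that value. The microRNA gene Mir378a lies inside this gene on the same strand. Pprc1, for the third member of the family, read 13.5, 9.34, 19.99 and 7.91 in WT and 11.1, 13.8, 21.5 and 11.4 in Cd36KO (0.20, SE 0.49, adjusted p = 0.903). Ppargc1a, for PGC-1alpha, the cold-responsive member of the family in brown fat, is not among the 44 and averaged 331 ± 98.6 in WT against 470 ± 68.5 in Cd36KO (SD, n = 4), a log2 fold change of 0.51 (SE 0.23, adjusted p = 0.231 by DESeq2). Of 34 other regulators of biogenesis with an adjusted p, 0 rose and 1 fell: Nrip1, the corepressor RIP140 that represses oxidative genes, went from 448 ± 80.1 to 232 ± 33.9 (SD, n = 4), a log2 fold change of −0.95 (SE 0.19, DESeq2 adjusted p = 2.08e-04, edgeR adjusted p = 0.0621). Before adjustment 4 of that list lay under 0.05 on each side by either tool, edgeR called 0, and the median was −0.02.

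Related gene lists from the same pathway put these values beside their surroundings. Of 34 nuclear genes of the respiratory chain and of import that are classic targets of these regulators, 6 rose by DESeq2 and none fell: Cycs (log2 fold change 0.61, adjusted p = 0.00351), Sdhb (0.78, adjusted p = 0.0161), Uqcrc1 (0.57, adjusted p = 0.0326), Cyc1 (0.56, adjusted p = 0.0331), Cox7a2 (0.68, adjusted p = 0.0332) and Uqcrh (0.52, adjusted p = 0.0446). Their products are cytochrome c and subunits of respiratory complexes II to IV. The median of the list was 0.27, with 26 above 0 and 8 below, and edgeR called 0 of them, with 13 under 0.05 before adjustment on the higher side and 0 on the lower.

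The other genes of mitochondrial translation and ribosome assembly came next. Of 28 with an adjusted p, 3 rose and none fell by DESeq2, with a median log2 fold change of 0.31 and 24 above 0. Letmd1, a mitochondrial protein tied to brown fat heat production, went from 1064 ± 184 to 2018 ± 515 normalized counts (SD, n = 4; log2 fold change 0.92, adjusted p = 0.00183 by DESeq2). Mrpl58, a release factor built into the ribosome, was 0.71 (adjusted p = 0.0387), and Cox14, which couples synthesis of the first oxidase subunit to its assembly, was 0.45 (adjusted p = 0.0351). Of 32 genes of mitochondrial RNA processing and decay, 1 rose, Tbrg4 (0.61, adjusted p = 0.0452 by DESeq2), and none fell, with a median of 0.20. Of 11 other mtDNA genes, 0 were called by DESeq2, with 1 under 0.05 before adjustment on the higher side, and the median was 0.02. edgeR called 0 genes of these 3 lists, with 6 higher and 0 lower, 5 higher and 2 lower, and 1 higher and 0 lower under 0.05 before adjustment.

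The mRNAs made from the mitochondrial genome are the direct product of this machinery. None of the 12 with an adjusted p passed by DESeq2, with 2 under 0.05 before adjustment, both higher, and edgeR called 0 with 1 under 0.05. The log2 fold changes had a median of 0.24, with 9 above 0 and 3 below. The nearest to a call was mt-Atp6, from 138 ± 9.33 to 207 ± 38.1 normalized counts (SD, n = 4; log2 fold change 0.59, adjusted p = 0.0634 by DESeq2), whose groups did not overlap. mt-Nd1 was 0.35 (DESeq2 adjusted p = 0.171) and mt-Nd2 −0.28 (DESeq2 adjusted p = 0.482), so transcripts cut from the same precursor strand lay on both sides of 0. Counts differed widely between these mRNAs: mt-Atp6 averaged 173 normalized counts over all libraries and mt-Nd4 530300. The cause of this gap was not tested, so the counts are not read as transcript levels.

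**Figure D5:**
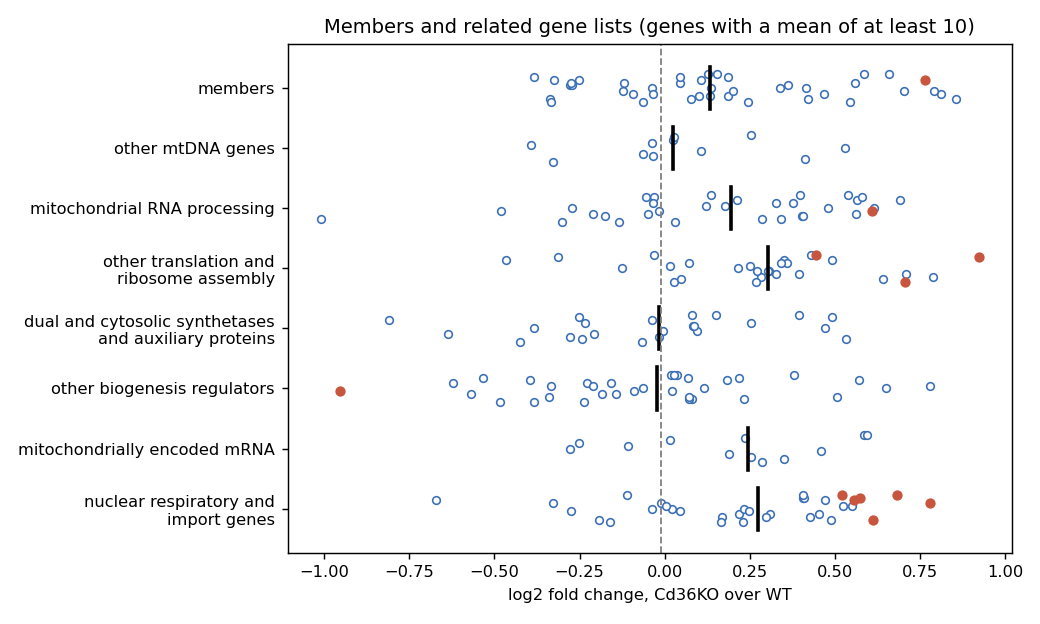
Log2 fold change of Cd36KO over WT for the members and 7 related lists, 1 point per gene with a mean of at least 10 normalized counts; filled points passed DESeq2's test, bars are list medians and the dashed line is the median of all such genes (−0.01). The members' median, 0.13, lies between that of the dual and cytosolic synthetases with their auxiliary proteins, −0.02, and those of the other translation genes, 0.31, and the nuclear respiratory genes, 0.27.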

How the data were processed

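Bulk RNA-seq libraries of mouse BAT (4 WT, 4 Cd36KO) were grouped by the genotype labels. The deposited table holds raw counts per gene. The study's methods describe trimming, STAR alignment to mm10 and HTSeq counting, while the submitters' processing notes name Trimmomatic, HISAT2 and GRCm38. Strandedness, annotation and use of molecular identifiers are not given in the sources used here. On the other strand 28 members overlap a gene, and on the same strand 4 do (Fars2, Wars2, Esrra and Ppargc1b). A second table holds log2 values that the authors made from the same counts as log2(count / size factor + 1). It was used in 1 alternative only. The table of sample attributes was not used.

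DESeq2 1.42.0 (Wald test, genotype as the only term, median-of-ratios size factors, Benjamini-Hochberg over all genes, threshold 0.05) was the main test, as the study used that tool, and edgeR 4.0.16 (quasi-likelihood) and limma 3.58.1 were alternatives. DESeq2 and edgeR were tested on simulated counts. Medians and overlap counts used genes with a mean of at least 10. Exact two-sided permutation tests on log2(normalized count + 1) had 70 arrangements. Intervals are 1.96 SE and cover the spread between libraries. The labels do not say that each library is 1 mouse, but the study's legend gives 4 mice per group. Within each group the libraries differed beyond sampling noise, most of all WT replicate 1 from the other WT libraries. Sequences and motif shares are from RefSeq promoter windows (GRCm38.p6). Alternatives were TMM factors, total counts, a low-count filter (at least 10 counts in 4 libraries), no independent filtering, a replicate block, muscle, white fat and brown adipocyte scores as covariates (the last added after seeing the data), and each library left out.

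The members and gene lists were chosen with earlier results of these data known. All 44 members could be named, and values in every library are given for called members, for members whose groups did not overlap at a mean of at least 50, and for Tfam, Polrmt, Lrpprc, Tufm, Nrf1, Gabpa, Esrra, Ppargc1b and Pprc1; of related lists, called genes and Ppargc1a are named. One further gene of the related lists, not a member, is not reported here. Fars2, Twnk, Slirp and other genes given with values were added after seeing the data.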

Additional observations from a re-analysis of the deposited data

Results flagged for a closer look

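No library stood apart from its group in any of the 82 groups of 4 values examined (41 members, WT and Cd36KO), where 1 in 20, or 4.1, would be flagged by chance. That check covers single members only. Over genes with a mean of at least 50 counts, WT replicate 1 differed most from its group. The chi-square per degree of freedom between it and each other WT library was 66.9, 80.7 and 107. Among the other WT libraries it was 12.8 to 28.7.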

How the results depend on the processing

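Of the alternatives, 0 members were called higher with edgeR, with independent filtering off, with a muscle score, with limma and with a brown adipocyte score, against 1 in the reported fit. With a white fat score there were 3 (Fars2, Iars2 and Lrpprc), and this score did not overlap between groups. Leaving out 1 library at a time gave 0 to 4 members called higher, 4 without WT replicate 4 (Fars2, Lrpprc, Tufm and Vars2), and 0 without WT replicate 1, 2 or 3, the unnumbered Cd36KO library or Cd36KO replicate 3 or 4. No alternative called a member lower. All genes called fell from 284 to 14 with edgeR, 171 without independent filtering, 1 with limma and 5 with the brown adipocyte score, rose to 584 with the white fat score, and ran from 69 to 507 with 1 library left out (69 without WT replicate 2, 507 without WT replicate 4). Vars2 kept its direction in all 19 alternatives (log2 fold change 0.57 to 1.14) and passed in 5. Its adjusted p was 0.0594 without independent filtering, 0.225 with the muscle score, 0.0552 with the white fat score, 0.225 with limma and 1.0 with the brown adipocyte score. The median of the members was 0.0284 with the brown adipocyte score and 0.09 to 0.178 otherwise. Members whose groups did not overlap numbered 1 to 5 (Cd36KO above) and 0 to 1 (below) with 1 library left out. The shares of all genes were not counted for these settings, where the smaller groups separate more easily, so these counts are not a result about the list. The cause of these changes was not tested.

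The sign of small differences turned in places. With 1 library left out Esrra ran from −0.207 to 0.0723. It was 0.0329 without WT replicate 1, 0.0272 without WT replicate 4, 0.0723 without Cd36KO replicate 2 and 0.273 with the muscle score. Nrf1 was 0.101 with the brown adipocyte score, and Ppargc1b −0.489 with the white fat score. With 1 library left out Pprc1 ran from −0.0525 to 0.492. It was −0.0525 without Cd36KO replicate 3, −0.265 with the muscle score and −0.0542 with the white fat score. Tfam was 0.0476 with the muscle score.

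The replicate numbers 2, 3 and 4 occur in both groups. Deviations from the group means correlated at −0.127, 0.422 and 0.141 in these pairs, so the numbers were not taken to pair the libraries. With the replicate number as a block over these 6 libraries 0 members were called and all genes called were 219, against 0 and 262 without the block. In the block fit Vars2 was 0.574 (adjusted p = 0.867), Esrra 0.0299 and Tfam 0.0281, and without the block in the same libraries Vars2 was 0.593 (adjusted p = 0.396) and Esrra 0.0387.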
